A study of Caenorhabditis elegans with 2 samples.

Results

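The cytosolic ribosomal protein genes of Caenorhabditis elegans were examined for binding of a GFP-tagged transcription factor. They were taken as all protein-coding genes of the WBcel235 annotation with a symbol that begins with rpl- or rps-, which gave 78 genes of the 19973 annotated on the nuclear chromosomes. Of these, 47 encode large-subunit (rpl-) and 31 small-subunit (rps-) proteins. The symbol rule leaves out 5 cytosolic ribosomal proteins with other symbols, the acidic stalk proteins rla-0, rla-1 and rla-2 and the ubiquitin fusions ubl-1 and ubq-2. It takes in rpl-24.2, whose yeast homologue is an assembly factor that leaves the particle before translation. The data are chromatin immunoprecipitation with sequencing (ChIP-seq) from whole larvae of the L3 stage, of pooled sex, in 2 biological replicates of 1 group. The strain, OP355, has the integrated transgene wgIs355 in the background unc-119(tm4063) III, and both replicates share it, which leaves nothing to compare between conditions. The target is given as mdl-1 in the strain and antibody fields and as ZK337.2 in the description field of the labels, and the protein is called the tagged factor here. Whole larvae mix all tissues, so a signal cannot be assigned to a cell type.

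The ribosome is built from ribosomal RNA and a fixed set of proteins, each needed in nearly equal amounts, and its genes are among the most highly transcribed in growing cells. The large subunit joins amino acids and the small subunit reads the messenger RNA. In animals, proteins of the Myc and Mad families bind the E-box sequence CACGTG, and Myc is known for raising the transcription of ribosome genes. mdl-1 encodes a Mad-like protein of that network.

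Values came from deposited lists of called regions in build ce11. Each region has a summit and a signal, a score of the peak caller that can be ranked within a list but not compared between lists. The IDR list (irreproducible discovery rate) held 1015 regions, the pooled list 30000, the list of replicate 1 15898 and that of replicate 2 30000. The 1015 IDR regions were identical to the 1015 highest of the pooled list, so the pooled list adds weaker regions but no separate evidence for the strong ones. The depth of reads behind the lists is unknown. Each gene was given a window that began 1000 bp before its annotated 5′ end and closed 200 bp after it, called the promoter window.

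Sequences at the summits are shown first, because the results on short elements turn on them. Each line is 201 bases centred on the IDR summit, written 5′ to 3′ on the strand of the ribosomal protein gene, from the RefSeq genome of WBcel235 (ce11). Capitals mark 5 elements on either strand: the canonical E-box CACGTG, its variant CACGCG, the GA repeat GAGAGA, the 7-mer CTGCGTC and the 6-mer ACCGTA. The last of these reads TACGGT on the opposite strand. The 5 genes shown lie on chromosomes III and IV. They were chosen as examples of regions with the last of these elements and, at rpl-35, of one with none of the 5. Their signals run from high to below the median of the 15 IDR regions of the family.

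rpl-15, chrIV:654825-655025, minus strand: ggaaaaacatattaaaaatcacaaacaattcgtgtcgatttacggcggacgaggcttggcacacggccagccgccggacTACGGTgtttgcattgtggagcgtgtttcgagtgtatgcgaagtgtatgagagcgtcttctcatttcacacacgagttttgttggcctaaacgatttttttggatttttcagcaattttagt
rpl-35, chrIII:7854598-7854798, plus strand: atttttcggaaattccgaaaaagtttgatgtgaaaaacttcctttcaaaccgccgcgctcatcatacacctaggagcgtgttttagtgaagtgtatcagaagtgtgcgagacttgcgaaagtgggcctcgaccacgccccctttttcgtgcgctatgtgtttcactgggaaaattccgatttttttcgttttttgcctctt
rps-1, chrIII:4475560-4475760, plus strand: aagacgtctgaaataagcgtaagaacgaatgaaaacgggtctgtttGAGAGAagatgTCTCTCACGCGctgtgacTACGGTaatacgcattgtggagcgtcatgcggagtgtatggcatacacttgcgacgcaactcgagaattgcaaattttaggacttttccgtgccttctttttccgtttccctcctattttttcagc
rps-23, chrIV:12391236-12391436, minus strand: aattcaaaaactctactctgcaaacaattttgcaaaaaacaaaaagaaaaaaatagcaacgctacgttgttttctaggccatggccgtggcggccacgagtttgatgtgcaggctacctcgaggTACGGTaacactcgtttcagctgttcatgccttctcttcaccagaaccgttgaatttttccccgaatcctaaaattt
rpl-20, chrIV:4749992-4750192, minus strand: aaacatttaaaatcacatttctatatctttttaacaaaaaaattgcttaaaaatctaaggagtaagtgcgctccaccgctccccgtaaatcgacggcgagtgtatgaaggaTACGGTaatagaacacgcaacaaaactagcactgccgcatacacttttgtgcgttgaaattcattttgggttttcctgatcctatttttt

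Of the 78 genes, 15 (19.2%) had an IDR summit in the window, against 504 of all 19973 protein-coding genes (2.52%). No 2 members shared an IDR region. The 15 were rpl-1, rpl-3, rpl-12, rpl-14, rpl-15, rpl-20, rpl-24.2, rpl-35 and rpl-43 of the large subunit and rps-1, rps-12, rps-18, rps-19, rps-20 and rps-23 of the small subunit. The large subunit had 9 of 47 (19.1%) and the small subunit 6 of 31 (19.4%), a difference of less than 1 gene. The IDR signal of the 15 regions ran from 25.9 to 124.7 with a median of 38.9, while the 422 IDR regions in any promoter window had a median of 40.1. The medians were thus close, and no test was made, since members of a family are not replicates.

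The highest signals of the family were at rpl-15 and rpl-3, of the large subunit. At rpl-15, whose product lies deep in the large subunit in other eukaryotes, the IDR signal was 124.7, rank 42 of the list, and the region (ce11 chromosome IV, 654833 to 655028) ranked 55 in replicate 1 with a signal of 30.5 and 46 in replicate 2 with a signal of 93.7. At rpl-3, which encodes a protein next to the peptidyl transferase centre, the IDR signal was 103.5, rank 71 (chromosome III, 3867512 to 3867656), with rank 90 in replicate 1 (signal 24.5) and 66 in replicate 2 (signal 78.8). These 2 regions were also the narrowest of the 15, at 196 and 145 bp where the other 13 had a width of 364 bp. At rpl-35, whose product lies at the peptide exit tunnel, the replicates differed widely: the IDR signal was 65.2 (chromosome III, 7854516 to 7854879), with rank 140 in replicate 2 (signal 59.7) and 3162 in replicate 1 (signal 4.98). At rpl-14 (IDR signal 60.045, chromosome I, 9688744 to 9689107) the ranks were 391 and 215 in replicates 1 and 2.

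The other large-subunit regions had IDR signals between 25.9 and 32.9. rpl-20 (32.9, chromosome IV, 4749910 to 4750273) ranked 495 and 750 in replicates 1 and 2, so both placed it high. rpl-12, which encodes a protein at the base of the ribosomal stalk (27.4, chromosome IV, 13240519 to 13240882), was not listed in replicate 1 and ranked 796 in replicate 2. rpl-24.2 (27.4, chromosome I, 9669067 to 9669430) ranked 3917 and 936. It was the only member with an IDR summit inside an intron, that of C03D6.1 on the opposite strand. rpl-43 (28.1, chromosome II, 14154326 to 14154689) ranked 2892 and 1074 and was the single member of the 15 outside the 1015 highest in both replicates. rpl-1, which encodes the protein of the mobile L1 stalk (25.9, chromosome I, 2876473 to 2876836), ranked 665 and 2428, and at rank 1011 of 1015 stood at the edge of the IDR list.

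Among the small-subunit genes rps-12 was highest, with an IDR signal of 77.3 (chromosome III, 5678985 to 5679348) and ranks of 229 and 128 in replicates 1 and 2. rps-1 (40.5, chromosome III, 4475478 to 4475841) ranked 4665 and 361, which again set replicate 2 far above replicate 1. Its summit lay in an exon of the non-coding RNA gene F56F3.10. rps-19, the worm counterpart of a gene mutated in human Diamond-Blackfan anaemia, had a signal of 40.4 (chromosome I, 9625894 to 9626257) and ranks of 570 and 799. rps-23, whose product lies at the decoding centre, had a signal of 38.9 (chromosome IV, 12391154 to 12391517) and ranks of 2123 and 529. rps-20 (36.6, chromosome I, 14469180 to 14469543) ranked 492 and 1012, and rps-18 (29.996, chromosome IV, 14824946 to 14825309) ranked 572 and 1061. The replicate lists differ in length, so small differences in rank between them show no change.

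**Figure D1:**
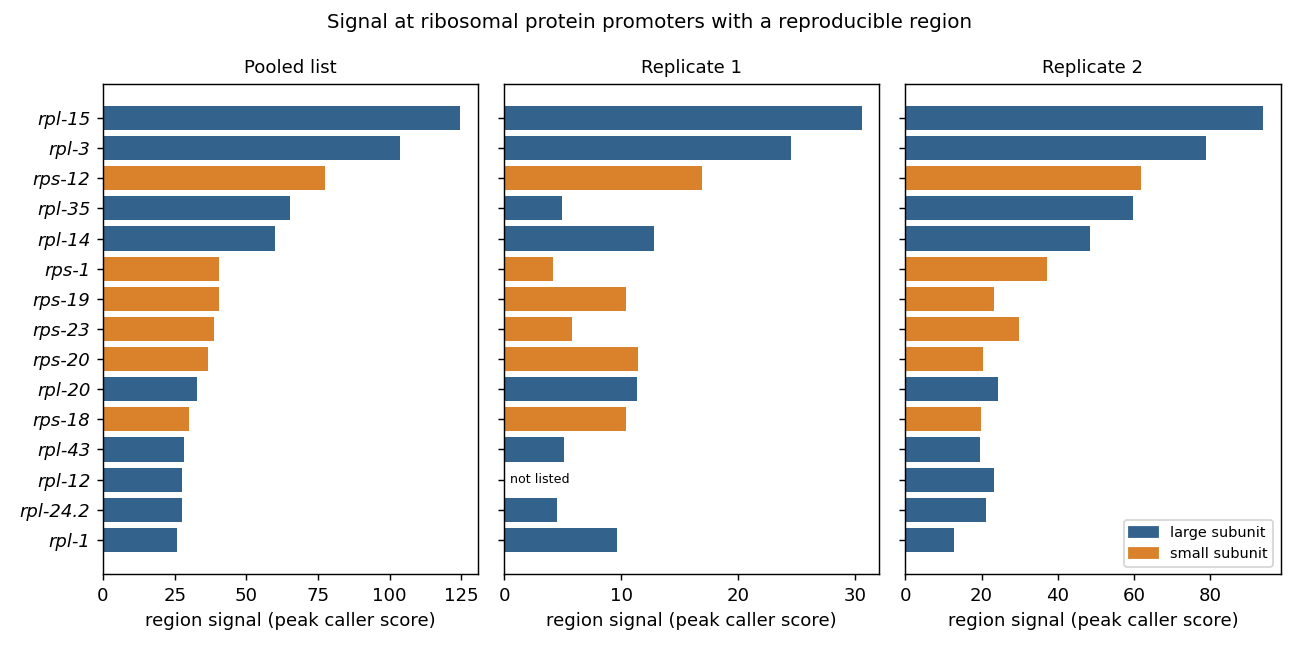
Signal of the strongest region in the promoter window of the 15 genes with an IDR summit, in the pooled list and in each replicate (x axes, peak caller score, a separate scale for each list); bars are single values with no error, blue for the large and orange for the small subunit. rpl-15 and rpl-3 are highest in all 3 lists, rpl-35 and rps-1 are high in replicate 2 only, and rpl-12 is not listed in replicate 1.

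The replicates were then taken apart. Over whole lists, 47 members (60.3%) had a summit in replicate 1, against 21.7% of all genes, and 62 (79.5%) in replicate 2, against 38.1%. Both replicates listed 43 members (55.1%, against 12.4% of all genes), replicate 1 alone 4 (5.13%, against 9.37%), replicate 2 alone 19 (24.4%, against 25.7%), and neither 12 (15.4%, against 52.5%). The share in replicate 2 alone was thus near that of all genes. Among the 1015 highest regions of replicate 1, summits lay at 13 members (16.7%), against 2.33% of all genes, and among those of replicate 2 at 12 members (15.4%), against 2.42%. The 7 members high in both were rpl-3, rpl-14, rpl-15, rpl-20, rps-12, rps-19 and rps-20. A further 5 of the 15 were high in replicate 2 alone (rpl-12, rpl-24.2, rpl-35, rps-1 and rps-23) and 2 in replicate 1 alone (rpl-1 and rps-18, the latter at rank 1061 in replicate 2). Replicate 1 also placed 4 members high that had no IDR summit, rpl-11.2, rps-26 and the divergent pair rpl-24.1 and rps-10. The pair shares 1 region. Replicate 2 placed 0 such members high. These splits of the high members were not counted over all genes, so they cannot be called particular to the family.

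**Figure D2:**
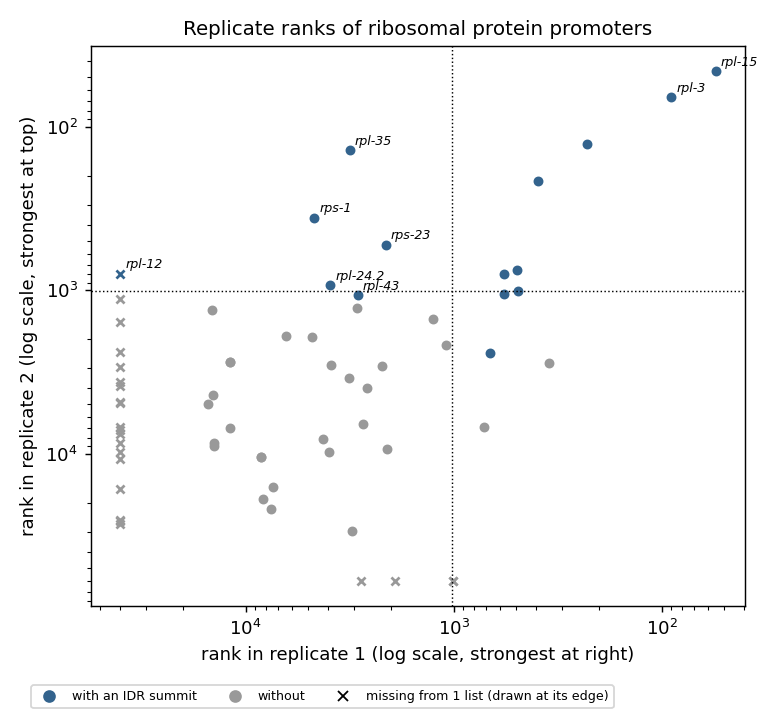
Rank of each member's strongest promoter region in replicate 1 (x axis) and replicate 2 (y axis), both on log scales with the strongest at the top right; dotted lines stand at rank 1015 and crosses at the edges mark members missing from 1 list, while the 12 in neither list are not drawn. Of the members with an IDR summit, 7 lie in the upper right, while rpl-35, rps-1, rps-23, rpl-24.2 and rpl-12 are high in replicate 2 alone.

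The strongest summits of the replicates lay a median of 52 bp apart over the 43 members listed in both (upper quartile 242 bp, highest 955 bp), against 141 bp over the 2473 genes listed in both (upper quartile 376 bp). For the 14 members with an IDR summit that both replicates listed, the median was 13 bp and the largest distance 65 bp. These 14 were selected for strong regions, and the distance was not computed for other genes with an IDR summit. Nor were the 43 members matched by signal to the 2473 genes. Neither the 52 bp nor the 13 bp can therefore be called a trait of the family.

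The weaker regions reached most of the family. In the pooled list 60 of 78 members (76.9%) had a summit in the window, against 7632 of all genes (38.2%), with 36 of 47 in the large (76.6%) and 24 of 31 in the small subunit (77.4%). With genes without a summit entered at 0, the median pooled signal was 11.4 over all members (quartiles 6.83 and 22.1) and 0 over all genes (upper quartile 6.81). The median member stood at the 89.7 percentile of all genes. By subunit the medians were 10.1 (quartiles 5.81 and 22.8) for the large and 13.1 (quartiles 7.36 and 20.2) for the small, so the quartile ranges overlapped. The highest values were 124.7 and 77.3.

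Just outside the IDR list stood rpl-11.2 with a pooled signal of 25.007 (pooled rank 1076), rps-15 with 24.8 (1098) and rpl-41.2 with 24.6 (1122), against 25.9 at rpl-1 just inside. rpl-11.2 ranked 348 in replicate 1 and 2784 in replicate 2, which set replicate 1 far above replicate 2. The next by pooled signal were rpl-5 (23.1), rpl-29 (22.5), rpl-7 (20.977), rps-28 (20.9), rpl-23 (20.3), rpl-36.A (19.6) and rps-9 (19.5). Of these, rpl-29 and rps-9 were not listed in replicate 1. The remaining 35 members with a pooled summit alone had signals below these.

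No pooled summit lay at 18 members: rpl-16, rpl-18, rpl-19, rpl-24.1, rpl-25.1, rpl-26, rpl-27, rpl-31, rpl-37, rpl-38, rpl-42, rps-4, rps-6, rps-8, rps-10, rps-11, rps-16 and rps-25. For 12 of them no list held a region. rps-6 is among these 12, and its product is the small-subunit protein phosphorylated by S6 kinase downstream of TOR. At rpl-42 both replicates listed a region though the pooled list did not. The pooled list and that of replicate 2 each hold 30000 regions, and whether they were cut at that length is unknown. A missing region thus means only that none was listed and is no measure of absent binding.

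Of genes in paralogous pairs, pooled signal was 25.007 at rpl-11.2 and 9.90 at rpl-11.1, 24.6 at rpl-41.2 and 13.3 at rpl-41.1, and 10.1 at rpl-25.2 with no region at rpl-25.1. At rpl-24.2 it was 27.4, while rpl-24.1, which encodes the structural protein, had a region in replicate 1 only. No error can be set on these differences, since the pooled list gives 1 value a gene.

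Summits were then placed relative to the genes. The 15 IDR summits had a median position 280 bp upstream of the 5′ end (range 50 to 786 bp, quartiles 258.5 and 348), close to the 275.5 bp over all 504 genes with an IDR summit, but with a narrower spread than the 131.75 to 495.5 bp of those genes. Relative to the start codon the median was 288 bp upstream. All positions refer to annotated ends, and where transcription starts was not measured. In the pooled list the strongest summit of a member lay a median of 312 bp upstream (quartiles 252.5 and 436), and that of all genes 308 bp (quartiles 107 and 608). Of the 60 members with a pooled summit, 43 (71.7%) had it 200 to 500 bp upstream, against 30.4% of all genes with one. Between 0 and 200 bp downstream lay 3 (5.0%), rpl-7A, rpl-17 and rps-3, against 13.4% of all genes. By subunit the medians were 312 bp (large) and 336 bp (small).

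**Figure D3:**
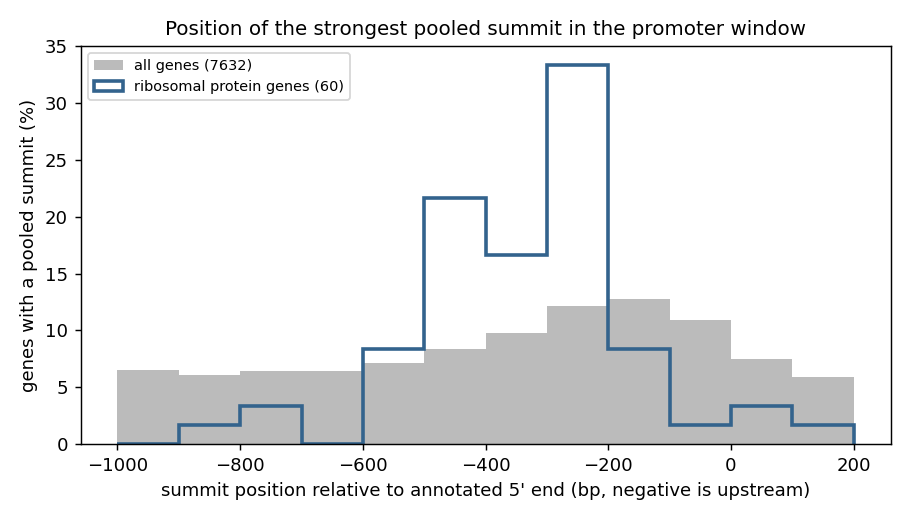
Position of the strongest pooled summit relative to the annotated 5′ end (x axis, bp) as a share of genes with a pooled summit (y axis, %), in bins of 100 bp, for 60 ribosomal protein genes (line) and all 7632 genes (grey). Of the ribosomal protein genes, 71.7% lie 200 to 500 bp upstream, against 30.4% of all genes.

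The upstream neighbour of many members lies on the other strand. Orientation was assigned at any distance, with gaps as large as 11497 bp at rpl-35 and 14392 bp at rps-28. A divergent neighbour therefore does not by itself mean a shared promoter. The nearest upstream protein-coding gene was divergent, with its 5′ end facing the member, for 52 of 78 members (66.7%, against 42.2% of all genes), tandem for 24 (30.8%, against 50.9%) and overlapping for 2. Divergent members had an IDR summit in 12 cases (23.1%, against 3.56% of all divergent genes), tandem members in 2 (8.33%, against 1.69%), rpl-3 and rpl-14, and of the overlapping ones rpl-24.2 did. A pooled summit lay at 46 of 52 divergent members (88.5%, against 41.2% of all divergent genes) and at 13 of 24 tandem members (54.2%, against 36.3%). The median pooled signal was 13.4 for divergent and 7.88 for tandem members. For 4 tandem members, rpl-16, rpl-25.1, rpl-27 and rps-16, the gap to the upstream gene was at most 150 bp. Of these, 0 had a pooled summit, against 35.2% of all such tandem genes. With 4 genes a count of 0 says little, and replicate 2 listed weak regions at rpl-16 (signal 4.26) and rps-16 (4.43). The upstream gene of rps-16 is fib-1, which encodes the nucleolar protein fibrillarin.

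**Figure D4:**
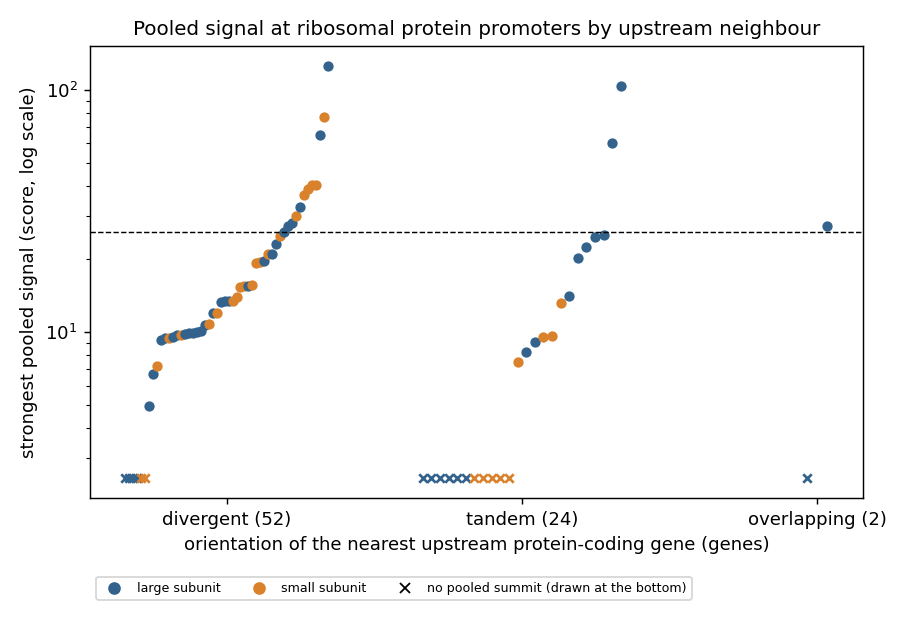
Strongest pooled signal in the promoter window (y axis, log scale) of each of the 78 members, grouped by the orientation of the nearest upstream protein-coding gene (x axis), with members in order of signal within a group; crosses are members with no pooled summit and the dashed line is the lowest IDR signal at a member, 25.9. On or above the line lie 12 of 52 divergent, 2 of 24 tandem and 1 of 2 overlapping members.

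The IDR summit could not be assigned to the ribosomal protein gene alone at most of the 15. At 11 (73.3%, against 35.9% of all genes with an IDR summit) it also lay in the promoter window of a neighbour, and at 7 (46.7%, against 19.0%) the 5′ end of the neighbour was the nearer. These 7 were rpl-1 (nearer to Y71F9AL.9, 277 bp), rpl-20 (Y17G9B.5, 148 bp), rpl-43 (Y48B6A.1, 135 bp), rps-18 (sec-61.A, 136 bp), rps-19 (hsr-9, 165 bp), rps-20 (ekl-4, 138 bp) and rps-23 (dpm-3, 251 bp). sec-61.A encodes a subunit of the translocon of the endoplasmic reticulum, and the rps-18 summit lay in one of its exons. dpm-3 encodes a subunit of dolichol-phosphate mannosyltransferase. The other shared regions lay nearer to the ribosomal protein gene, with lin-54 (343 bp, at rpl-12), K11H12.8 (465 bp, at rpl-15), ifet-1 (510 bp, at rps-1) and ska-3 (162 bp, at rps-12) as neighbours. Only rpl-3, rpl-14, rpl-24.2 and rpl-35 had an IDR summit in no other gene's window. Which gene of a pair a region acts on was not tested.

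In 3 places a pair of members face each other: rpl-24.1 and rps-10 (gap of 609 bp, chromosome I), rpl-36 and rps-14 (662 bp, chromosome III) and rpl-39 and rps-30 (498 bp, chromosome V). rps-30 encodes a small-subunit protein that mammals make as a fusion with a ubiquitin-like protein. In each pair the same strongest pooled region served both genes where one was listed, with a signal of 9.39 at rpl-36 and rps-14 and 9.74 at rpl-39 and rps-30. The pair rpl-24.1 and rps-10 shared a region in replicate 1 alone (rank 1007, signal 7.83).

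By chromosome, IDR summits lay at 5 of 23 members on I (against 2.99% of all genes there), 1 of 10 on II (2.06%), 4 of 18 on III (3.56%), 5 of 17 on IV (2.04%), 0 of 8 on V (1.52%) and 0 of 2 on X (4.03%). With so few members on V and X, a count of 0 there says little.

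The search for sequence elements covered 100 bp to each side of the summit and both strands. CACGTG, the E-box of Myc and Mad proteins, was in 1 of 15 member regions (6.67%), at rpl-14, against 299 of the 1000 other IDR regions (29.9%) and 27.8% of the 407 other IDR regions in promoter windows. GAGAGA was in 3 (20%, at rpl-3, rpl-24.2 and rps-1), against 58% and 55%. CTGCGTC was in 0, against 22.9% and 21.1%. CACGCG, a variant of the E-box, was in 4 (26.7%, at rpl-43, rps-1, rps-12 and rps-19), against 15.8% and 16.2%. None of these 4 elements was present in 8 of 15 member regions (53.3%) and in 20.2% of other IDR regions. The 4 were chosen with earlier results of these data known, so their differences from other IDR regions are no independent evidence. The GC content of these windows had a median of 42.3% in member regions and 46.3% in other IDR regions. CACGTG was rare in this family whether or not a region was listed: the 500 bp upstream of the 5′ end held it in 1 of 78 members (1.28%), against 8.62% of all genes. For the others this comparison did not show rarity: GAGAGA was in those 500 bp in 38.5% of members, against 30% of all genes, CTGCGTC in 6.41%, against 6.51%, and CACGCG in 11.5%, against 7.45%.

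Another element was common at these summits. ACCGTA, chosen after the sequences were seen, was in 9 of 15 member regions (60.0%), against 4.50% of other IDR regions and 6.14% of those in promoter windows. The 9 were rpl-14, rpl-15, rpl-3, rpl-20, rpl-43, rps-1, rps-18, rps-20 and rps-23, and in the lines above it is seen as TACGGT at 4 of the 5 genes and is missing at rpl-35. At rpl-20, rpl-43, rps-18, rps-20 and rps-23 the summit lay nearer to the 5′ end of the neighbour. The nearest base of ACCGTA lay a median of 20 bp from the summit, with a range of 8 to 95 bp. Among the 2080 6-mers counted with their reverse complements, it ranked 3 by difference in share, after AAATTG and AAAATT, and 1 among the 1360 with at least 3 G or C. These 15 regions were used to pick it, so their share is no independent evidence.

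The members with a pooled region alone were not used in that choice. They had 43 distinct strongest regions, of which 13 (30.2%) held ACCGTA, against 5.85% of the 6209 other promoter regions in the pooled list alone. For the 4 other elements the shares in those 43 regions lay close to those of such promoter regions: CACGTG was in 1 (2.33%, against 4.88%), CACGCG in 2 (4.65%, against 3.91%), GAGAGA in 6 (14.0%, against 16.6%) and CTGCGTC in 2 (4.65%, against 5.33%). ACCGTA was also found where no region was called. In the 500 bp upstream of the 5′ end it was present in 36 of 78 members (46.2%), against 14.0% of all genes, with 9 of 15 among those with an IDR summit, 20 of 45 (44.4%) among those with a pooled summit alone and 7 of 18 (38.9%) among those with no pooled summit. These 9 are not the same genes as the 9 with ACCGTA at the summit: they include rpl-1 and rpl-24.2 but not rpl-43 and rps-18. A match describes the letters and not a bound site.

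**Figure D5:**
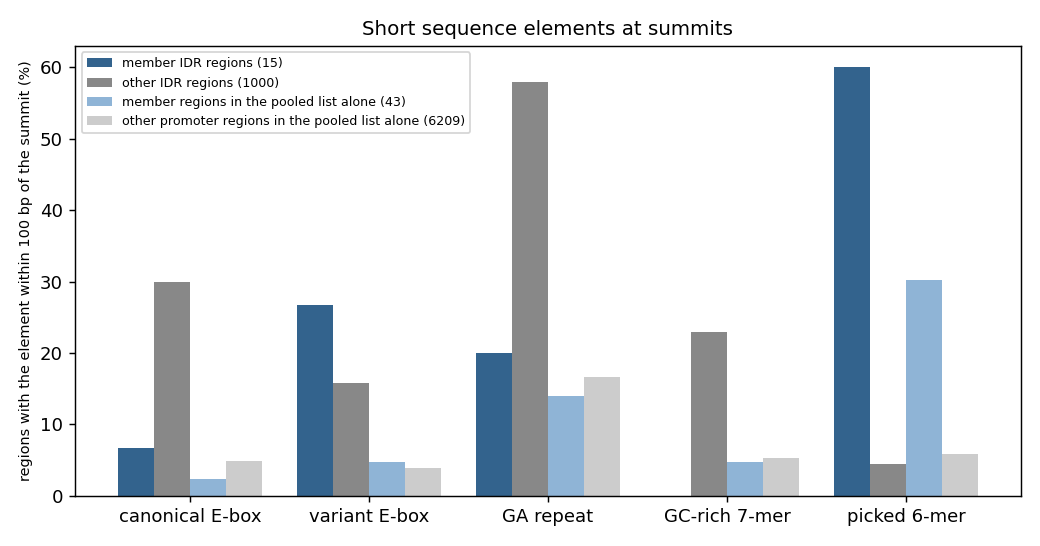
Share of regions (y axis, %) with each element within 100 bp of the summit: canonical E-box, its variant, the GA repeat, the GC-rich 7-mer and the 6-mer picked on the 15 regions. The canonical E-box, the GA repeat and the GC-rich 7-mer are rarer at the 15 member IDR regions than at the 1000 other IDR regions, and the picked 6-mer is more frequent at both sets of ribosomal protein regions (60.0% and 30.2%) than at the others (4.50% and 5.85%).

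Other genes of protein synthesis were counted with the same windows, against the same 2.52% of all genes with an IDR summit. None of the 5 cytosolic ribosomal proteins outside the symbol rule had an IDR summit. Their pooled signals were 16.8 at ubq-2, 10.8 at rla-2 and 5.27 at rla-0, with no region at rla-1 and ubl-1. The 70 mitochondrial ribosomal protein genes (symbols mrpl- and mrps-) had 0 IDR summits and 28 pooled summits (40.0%), close to the 38.2% of all genes. Elongation factors (symbols eef-) had IDR summits at 5 of 6 genes, highest at eef-1A.2 (124.5) and eef-2 (39.3), initiation factors at 1 of 33, iff-2 (98.6), and tRNA synthetases at 1 of 20, hars-1 (26.5). No IDR summit lay at any of 8 genes of RNA polymerase I and III or 10 ribosome biogenesis genes. In lists this short, counts of 0 or 1 say little beside the 2.52% of all genes. Pooled summits lay at 6 of 6 elongation factors, 17 of 33 initiation factors (51.5%) and 10 of 20 tRNA synthetases (50%). They also lay at 5 of 8 RNA polymerase genes (62.5%), 7 of 10 ribosome biogenesis genes (70%) and 3 of the 5 outside the symbol rule (60%). These shares exceeded the 38.2% of all genes, as did the 76.9% of the 78 members, so a raised pooled share was not particular to the members. ACCGTA was within 100 bp of the summit at eef-1A.1, eef-2 and iff-2. It was absent at eef-1A.2, which had the highest IDR signal of these genes, and at eef-1B.1, eef-1G and hars-1. Of the 407 IDR regions in promoter windows outside the 78 members, 6.14% held it.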

How the data were processed

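The authors' deposited lists of regions in build ce11 were used, one for each replicate, one pooled and one thresholded by IDR. Per the deposited file descriptions, the pooled list came from both alignments and a control, and the IDR list from the pooled and replicate lists. Not given in the sources used here were the aligner, peak caller and thresholds. The deposited signal is a score with no stated scale. The ce10 lists were not used.

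Genes, 5′ ends and exons came from the Ensembl release 115 annotation of WBcel235, and sequence from the RefSeq genome of the same assembly, whose coordinates are those of ce11. Summits were placed in windows in Python 3.11.15 with numpy 2.4.6, after a check on simulated regions, and figures were drawn with matplotlib 3.10.9. Coordinates are 1-based. With 1 group of 2 replicates no test between samples is possible, and none was made over genes or regions, so shares are descriptions beside those of all genes. Elements were compared within 100 bp of summits. Genes were named by a rule: members with an IDR summit, the 10 next by pooled signal, paralogous pairs, members without a pooled summit, and the 2 highest of each other list. The members, lists, first 4 elements and alternatives were chosen with earlier results of these data known. Some summit sequences are not reported here.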

Additional observations from a re-analysis of the deposited data

How the results depend on the processing

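The count of 15 members with an IDR summit (7.62 times the share of all genes) was 13 with a window of 500 bp upstream (without rpl-43 and rps-18; all genes 1.92%, ratio 8.69). It remained 15 with 2000 bp upstream (all genes 3.57%, ratio 5.38), with 0 bp downstream (2.36%, 8.15), with the 5′ end of any transcript (2.98%, 6.46) and with placing by overlap of at least 1 bp (2.74%, 7.02). Assigning each summit only to the nearest 5′ end left 8 members, with 8 regions, 2 of them at small-subunit genes, a median IDR signal of 62.64 and a median summit position of -261.5 bp; the share was then 10.3%, against 2.05% of all genes. The upper 507 regions of the IDR list left 7 members and 7 regions, 4 at large- and 3 at small-subunit genes, with a median signal of 65.23; fewer regions are searched by construction, and the share was 8.97%, against 1.29%. With the 1015 highest regions of a single replicate the count was 12 to 13, the median signal 11.38 to 33.53 (on separate scales) and the median summit position -299 to -278 bp. Without replicate 2 the calls at rpl-12, rpl-24.2, rpl-35, rpl-43, rps-1 and rps-23 were lost, and without replicate 1 those at rpl-1, rpl-43 and rps-18. Shares of elements varied between the alternatives: ACCGTA between 46.67% and 73.33%, CACGCG between 13.33% and 42.86% and CTGCGTC between 0% and 6.67%. All stayed within exact 95% intervals around the main shares. With 15 regions these intervals are wide, and they treat regions of a family as independent. Several alternatives also search the same regions again, so staying inside the intervals is no check of the shares. No paired analysis was possible because there is only 1 group of samples. Unknown read depth and the single pooled value a gene limit what these lists can show.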

Other observations

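The 6-mers more frequent at the 15 IDR regions of ribosomal protein genes than at the 1000 other IDR regions included others besides ACCGTA, all named after their values were seen. GGCCTA was in 5 member regions (33.3%), against 3.00% of other IDR regions, and CCTAAA, which overlaps it, in 6 (40.0%), against 3.40%. In the sequence at rpl-15 both are part of one run that reads ggcctaaac. At the 43 regions of members with a pooled summit alone, which were not used in the ranking, GGCCTA was in 10 (23.3%), against 2.92% of other promoter regions of that list, and CCTAAA in 13 (30.2%), against 8.25%. GCATAC did not behave in that way: it was in 6 member IDR regions (40.0%, against 4.60%) but in 0 of the 43 (against 3.82%). CGCTCC was in 7 (46.7%, against 9.30%) and in 3 of the 43 (6.98%, against 4.82%). The values at the 43 regions were also in view when these 6-mers were named, so their shares there are no independent evidence. Median GC content was 42.3% at the 15 member IDR regions and 46.3% at the 1000 other IDR regions. It was not compared for regions in the pooled list alone, and the part of base composition in these shares was not tested.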
